A study of Mus musculus with 15 samples.

Results

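The comparison described here set mouse bone marrow monocytes cultured for 48 h with granulocyte-macrophage colony-stimulating factor (GM-CSF) against the same kind of culture at 24 h. It rests on 2 of the 15 arrays of the series, 1 array at each time, identified by their titles, and the comparison itself was picked with earlier results of these data known. A further array of monocytes at 0 h supplied the starting level, and a pair of arrays of whole marrow cultured for 7 days served as an outside reference. The series as a whole profiled dendritic cell progenitors, pre-dendritic cells, marrow cultures and monocytes from mice of the C57Bl/6 background at steady state, with biotin-labelled total RNA on one-colour Affymetrix arrays. The titles of the progenitor and pre-dendritic cell arrays begin with WT, read here as wild type. Those of the monocyte and marrow culture arrays name no genotype. The monocytes were enriched from marrow by depletion of cells bearing Ly6G, B220, CD4, CD8a, DX5, CD11c, Ter119 or CD117, and the labels put the product at above 90% CD11b and Ly6C positive. They were then kept in 20 ng/ml GM-CSF until harvest. The reference cultures were CD11c+ non-adherent cells from marrow in 20 ng/ml GM-CSF and adherent cells from marrow in 20 ng/ml M-CSF. The labels do not give the age or number of mice or whether animals were pooled, and no monocyte culture without GM-CSF was used here, so time in culture and time with GM-CSF cannot be told apart.

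GM-CSF acts through a receptor whose beta chain activates STAT5, and in culture it supports the conversion of monocytes into cells with dendritic cell and macrophage features. Dendritic cell maturation is the programme by which such a cell raises costimulatory molecules for T cells, reorganises its cytoskeleton and acquires the chemokine receptor that guides it to lymph nodes. Interferon-stimulated genes encode antiviral effectors and sensors that type I and type II interferons switch on through STAT transcription factors.

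The deposited values were intensities on a linear scale, with an array median of 80.53 at 0 h, 77.73 at 24 h and 80.27 at 48 h. Of 45037 probe sets, 34945 carried 1 gene symbol, and they represented 18193 genes. Differences are given as log2(intensity + 32) at 48 h minus the same at 24 h, so that a difference of 1 is a 2-fold change on that scale and the change of a dim gene is understated. A gene was called when the difference was at least 2-fold and the brighter of its 2 values exceeded the array median. With 1 array a side there is no test, no error and no replicate check, and the words rose and fell are used only for called genes. As a measure of array-to-array spread, the duplicate arrays of 4 progenitor populations in the same series, scaled to the monocyte medians, gave 23 to 70 called genes at 2-fold (0.126% to 0.385%) and 0 to 3 at 4-fold. Those duplicates are of sorted cells and carry no culture-to-culture spread. As a check of the label, the 0 h array held Csf1r, the receptor for M-CSF, at 17455. Lyz2, the lysozyme of myeloid cells, was at 17593, and Ccr2, the receptor by which monocytes leave the marrow, at 10007. Also above the array median at 0 h were 11 of 12 neutrophil, 6 of 7 early progenitor and 5 of 10 B cell list members. Over all genes, 11341 of 18193 were above it at 24 h or 48 h. Of the list members above it at 0 h, Cd177 was at 6467, Mpo at 4935, Csf3r at 4525, Elane at 1791, Myb at 1591 and Cd79b at 700. Whether such cells contributed was not tested.

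Between 24 h and 48 h, 500 genes rose (2.75% of all genes) and 162 fell (0.89%), while the median difference over all genes was 0.02. At 4-fold the counts were 134 and 9. The step from 0 h to 24 h was wider, with 1132 genes higher and 1327 lower by the same rule; it shares the 24 h array, so the values of both steps are set side by side below and not correlated. The central 90% of gene differences spanned 1.39 from 24 h to 48 h, against 0.776 to 0.978 between duplicate progenitor arrays. Of the 500 genes that rose, 143 were at or below the array median at 24 h, and of the 162 that fell, 53 were at or below it at 48 h.

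**Figure D1:**
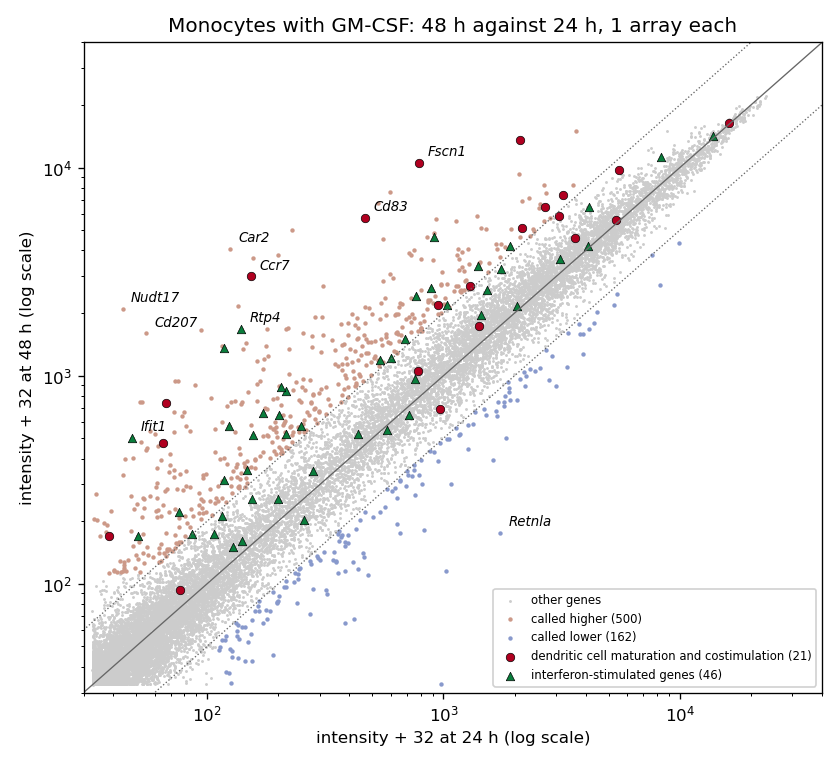
Each point is a gene, with its intensity plus 32 at 24 h on the horizontal log axis and at 48 h on the vertical log axis, 1 array each; the solid line marks equality and the dotted lines 2-fold. The 500 genes called higher lie above the upper dotted line and include 12 of 21 maturation genes (red circles) and 25 of 46 interferon-stimulated genes (green triangles), while no member of either list is among the 162 called lower.

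Many genes of dendritic cell maturation rose. Of 21 measured members, 12 rose, none fell and 9 were not called, with a median difference of 1.20 against 0.02 over all genes. By the same rule 2.75% of all genes were higher and 0.89% lower, and of the 11341 genes above the median on either array, as most list members are, 4.41% were higher and 1.43% lower. Ccr7, the chemokine receptor that directs maturing dendritic cells to lymph nodes, read 16.9 at 0 h, 121 at 24 h and 2977 at 48 h, a difference of 4.29. Cd83, a surface marker of mature dendritic cells, read 147, 435 and 5702 at the same times, a difference of 3.62. Fscn1, which bundles actin in dendrites, read 9.51, 758 and 10480, a difference of 3.73. All 3 genes were higher at 48 h than on either earlier array. Fscn1 had 2 other bright probe sets, of which 1 moved the same way, and as the median of all its probe sets the gene had a difference of 0.81 and was not called.

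Ligands that act on other cells were among the members that rose. Ccl22, a chemokine that draws T cells bearing CCR4, read 33.4, 2080 and 13548 at 0, 24 and 48 h, a difference of 2.68. Tnfsf4, the ligand of OX40, read 14.9, 32.7 and 445, a difference of 2.88. Cd200, an inhibitory ligand, read 3.16, 35.2 and 708, a difference of 3.46. These genes were below the array median at 0 h, and only Ccl22 was above it by 24 h.

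The classical costimulatory molecules Cd86, Cd80 and Cd40 also rose, with smaller differences than Ccl22, Tnfsf4 and Cd200. Cd86 read 1917, 2113 and 5106, a difference of 1.26, and Cd80 read 103, 920 and 2163, a difference of 1.21. Cd40, the receptor for T cell help, read 922, 1269 and 2672, a difference of 1.06. Cd70, Socs2 and Marcks made up the other called members. Pdcd1lg2, the second ligand of PD-1, was just short of the threshold at 0.94, from 3040 to 5843. Ccl17, a chemokine related to Ccl22, had a difference near 0, at 16201 and 16325 after 48.7 at 0 h. On these single arrays, members of the list thus differed in when they reached their 48 h level. The highest value was 23230 on the 24 h array and 22067 on the 48 h array, so Ccl17 sat near the top of the range at both times.

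The 15 genes with the largest rises included several with known roles in dendritic cells. Aldh1a2, an enzyme that makes retinoic acid, read 287, 562 and 7637, a difference of 3.69. Tnfrsf9, a costimulatory receptor of the TNF receptor family also called 4-1BB, read 33.4, 167 and 3786, a difference of 4.26. Ccl5, a chemokine for T cells and monocytes, read 51.5, 62.1 and 1628, a difference of 4.14. Nr4a3, an orphan nuclear receptor, read 55.6, 496 and 6763, a difference of 3.69, and its relative Nr4a2 read 566, 105 and 387. Nudt17, of the Nudix hydrolase family, had the largest rise of all, from 9.59 and 11.8 to 2063, a difference of 5.58. Mreg, Saa3, Serpinb6b, Speg, Icos and Mucl1 had differences from 3.69 to 4.56, and Ccr7, Fscn1, Cd207 and Car2 were the remaining ones. Each of these 15 genes was higher at 48 h than on both earlier arrays.

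Langerin also appeared late. Cd207, the lectin langerin of Langerhans cells and some dendritic cells, read 7.14 at 0 h, 23.2 at 24 h and 1569 at 48 h, a difference of 4.86. Cldn1, a tight junction protein, read 36.7, 1358 and 5806, a difference of 2.07. Cdh1, the E-cadherin that anchors Langerhans cells, was not called, at 9789 and 9762, after 24.2 at 0 h. Epcam, another adhesion molecule of Langerhans cells, stayed below the array median, at 53.7 and 17.7. Of 4 measured members of this adhesion list, 2 rose and none fell, against 4.41% and 1.43% of genes above the median on either array. Itgae, the integrin alpha E chain that binds E-cadherin, read 202, 1094 and 5487, a difference of 2.29, and was the only one of 14 leukocyte integrins called.

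Genes of antigen presentation were mostly bright by 24 h. By the same rule, 4.41% of all genes above the median on either array were higher and 1.43% lower. Of 11 genes of MHC class II presentation, 2 rose and none fell, with a median difference of 0.07. These 2 were H2-Oa, from 199 to 819, and H2-Ob, from 353 to 1183, which together form the H2-O dimer that restrains peptide loading. H2-Aa, the class II alpha chain, read 5121, 21528 and 19818, and Cd74, the invariant chain, read 2142, 17841 and 18034. The highest value on the 24 h array was 23230, so these genes sat near the top of its range. None of 14 genes of MHC class I presentation was called, with a median difference of 0.29, though Psmb9, an immunoproteasome subunit, went from 3559 to 7044 with a difference of 0.98.

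Genes of the classical dendritic cell core gave few calls in this step. Of 20 measured members 1 rose, where 4.41% of genes above the median on either array were higher. It was Dpp4, a surface peptidase, from 144 to 668 with a difference of 1.99 after 563 at 0 h. Zbtb46, a transcription factor of classical dendritic cells, read 128, 1487 and 2155, and Irf4, a factor of the cDC2 type, read 473, 6639 and 6248. Itgax, which encodes CD11c, read 59.3, 12043 and 12541. Flt3, the receptor of the cDC growth factor, read 297, 32.9 and 70.5, and Xcr1, a cDC1 receptor, read 37.0, 38.4 and 15.1, so both were below the array median at 24 h and 48 h.

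**Figure D2:**
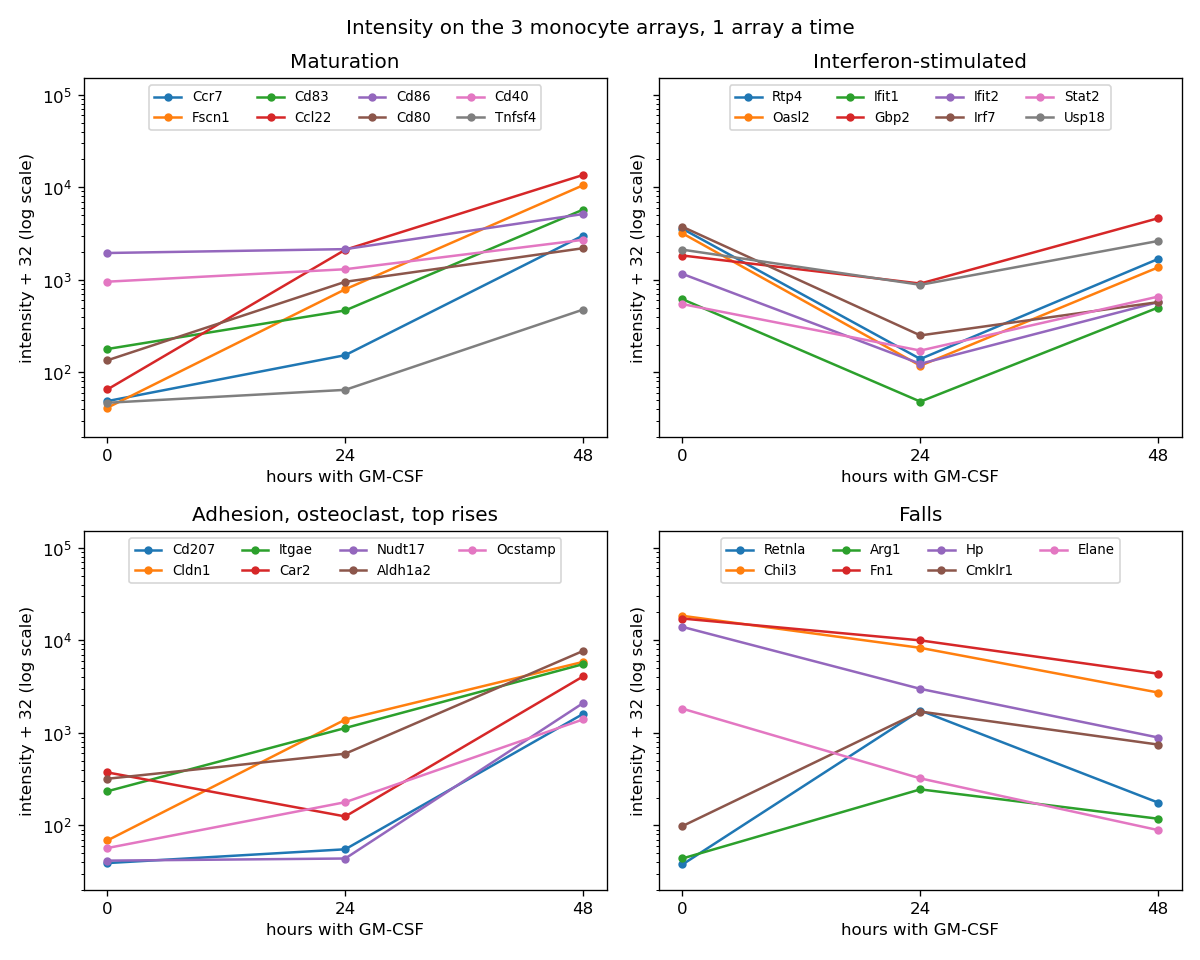
Each line joins a gene's intensity plus 32 (log axis) on the arrays of monocytes at 0 h, 24 h and 48 h with GM-CSF, 1 array a time, with no error to draw. The maturation genes shown are highest at 48 h, for example Ccl22 at 13548; the interferon-stimulated genes shown are lowest at 24 h, for example Ifit1 at 16.3; Retnla, Arg1 and Cmklr1 peak at 24 h.

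Interferon-stimulated genes gave the most calls of any list, and theirs was also the longest list. Of 46 measured members 25 rose and none fell, a median difference of 1.05 against 0.02 over all genes. Over all genes 2.75% were higher and 0.89% lower, and over those above the median on either array 4.41% and 1.43%. All 46 were above the array median at 0 h, 41 at 24 h and 46 at 48 h. Their 24 h level was below that of the starting monocytes: the list's median difference from 0 h to 24 h was -1.55, and 37 of 46 members were lower at 48 h than at 0 h. Both differences use the same 24 h array.

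Rtp4, a chaperone induced by interferon, read 3523 at 0 h, 108 at 24 h and 1649 at 48 h, a difference of 3.59. Oasl2, of the oligoadenylate synthetase family, read 3143, 86.1 and 1332, a difference of 3.53. Ifit1, which binds viral RNA lacking a methylated cap, read 585, 16.3 and 470, a difference of 3.38. Ifit1 was under the array median at 24 h, Oasl2 and Rtp4 were little above it, and all 3 were still under their starting value at 48 h.

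Other members went above their starting level. Gbp2, a guanylate-binding protein that attacks vacuoles of pathogens, read 1798, 879 and 4596, a difference of 2.34. Stat2, a factor of the interferon-response complex, read 514, 140 and 627, a difference of 1.94. Usp18, which dampens interferon signalling, read 2085, 851 and 2597, a difference of 1.57. Irf7, the factor that amplifies type I interferon, and Rsad2, the antiviral enzyme viperin, stayed well under it: Irf7 read 3705, 219 and 542, and Rsad2 read 1882, 124 and 486. In all, 20 of the 25 that rose were lower at 48 h than at 0 h.

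The rise was not shared by every member. Slfn1 read 4089, 2007 and 2123, Ifit3 read 1045, 542 and 515, and Oas2 read 1170, 684 and 618, and none of these was called between 24 h and 48 h. Probe sets for families of near-identical genes (Ifit, Oas, Slfn, Gbp) may read more than 1 copy, so the split within a family is uncertain.

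None of the interferon genes looked up was called. In a list of interferons, their receptors and sensors that was added after the values were seen, 23 genes were measured and 0 were called in either direction. Among all genes above the median on either array, 4.41% were higher and 1.43% lower, so few calls fall in a list of this size. Ifnb1, the first type I interferon made in most cells, read 68.6, 55.5 and 79.5, below the array median throughout, as were Ifna2, Ifna4, Ifna5 and Ifng. The rule could not call a gene that dim. Ifna1 read 105, 102 and 85.4 and Ifnab read 131, 133 and 152, above the median throughout. Both are on probe sets that can read close copies. Ifnar1, a receptor subunit for type I interferon, read 1434, 2431 and 1674. Sting1, the adaptor of cytosolic DNA sensing, read 4316, 4510 and 6906. The highest difference on this list was that of Ddx58, just short of the threshold at 0.90, from 543 to 1044. The lowest was that of Irf5, at -0.57, from 8721 to 5880.

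The promoters of the members that rose are shown because these genes moved together and genes of this class often carry a known binding element. The interferon-stimulated response element has a core of GAAA repeats spaced by 2 bases, searched here as GAAANNGAAA on both strands, overlapping matches included. RefSeq windows of 300 bases (GRCm38.p6, 250 before to 50 after the start) were found for 20 of the 25 genes that rose, and 11 of these 20 (55.0%) held the core, as did 7 of 13 list members that were not called (53.8%) and 1079 of all 27025 genes with such windows (3.99%). The 4 below had the largest differences among those with a match, and the core is in capitals. They are Ifit1 (chr19:34640639-34640938, plus strand), Gbp2 (chr3:142620413-142620712, plus strand), Stat2 (chr10:128270248-128270547, plus strand) and Oas3 (chr5:120777610-120777909, minus strand), each printed 5′ to 3′ along the gene.
Ifit1: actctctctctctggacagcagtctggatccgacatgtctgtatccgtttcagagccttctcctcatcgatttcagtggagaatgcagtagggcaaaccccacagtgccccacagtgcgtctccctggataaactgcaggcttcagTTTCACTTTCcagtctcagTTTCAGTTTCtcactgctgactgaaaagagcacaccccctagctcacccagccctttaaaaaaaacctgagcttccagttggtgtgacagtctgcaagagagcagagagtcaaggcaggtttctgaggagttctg
Gbp2: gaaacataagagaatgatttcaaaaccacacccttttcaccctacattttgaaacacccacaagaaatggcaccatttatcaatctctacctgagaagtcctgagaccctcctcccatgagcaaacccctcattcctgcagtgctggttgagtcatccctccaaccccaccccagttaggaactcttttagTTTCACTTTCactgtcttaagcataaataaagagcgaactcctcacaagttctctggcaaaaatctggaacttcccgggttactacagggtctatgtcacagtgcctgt
Stat2: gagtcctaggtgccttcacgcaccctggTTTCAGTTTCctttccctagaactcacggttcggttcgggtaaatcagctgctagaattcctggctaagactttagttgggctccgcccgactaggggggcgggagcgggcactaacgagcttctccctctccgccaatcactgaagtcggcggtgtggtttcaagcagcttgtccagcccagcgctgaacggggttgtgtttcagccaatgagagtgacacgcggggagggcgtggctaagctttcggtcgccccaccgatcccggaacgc
Oas3: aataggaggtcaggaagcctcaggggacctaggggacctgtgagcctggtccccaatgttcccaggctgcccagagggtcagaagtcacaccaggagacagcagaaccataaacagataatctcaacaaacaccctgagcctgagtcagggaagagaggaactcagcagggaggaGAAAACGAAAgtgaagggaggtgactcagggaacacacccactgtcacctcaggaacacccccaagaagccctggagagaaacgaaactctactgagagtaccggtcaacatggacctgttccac
In Ifit1 the 2 matches began 104 and 85 bases before the start, and in Gbp2, Oas3 and Stat2 the match began 59, 75 and 222 bases before it. Oasl2, Ifit2 and Irf7 held no match to these letters in this window. For the cholesterol list, TCACNCCAC was searched in the same way, and the Mvd window held none. A match was present in 1 of 21 members with windows that were not called (4.76%), against 388 of 27025 genes (1.44%).

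Genes of osteoclasts and cell fusion were a smaller group. Car2, a carbonic anhydrase with which osteoclasts acidify bone, read 341 at 0 h, 92.8 at 24 h and 4038 at 48 h, a difference of 5.03. Ocstamp, a protein of osteoclast fusion, read 24.9, 146 and 1364, a difference of 2.97, and Atp6v0d2, a subunit of the proton pump, read 19.1, 233 and 636, a difference of 1.33. These 3 of 15 measured members rose and none fell, with a median difference of 0.54. Among all genes above the median on either array, 4.41% were higher and 1.43% lower. Acp5 and Ctsk, enzymes that osteoclasts use on bone, were not called, at 98.1 and 163 at 48 h. Dcstamp, a membrane protein of cell fusion, read 20.8 at 0 h, 5232 at 24 h and 6478 at 48 h. Car2 is also an erythroid gene, and 1 of 9 measured erythroid genes was called, Car2 itself. Klf1, Alas2 and Rhag, markers of that lineage, were at or below 35.7 on the 24 h and 48 h arrays, under the array medians. Car1, another marker, was above them at 139 and 106 and was not called. Of the 9 erythroid genes, 4 were above the median at each of these times, where 11341 of all 18193 genes were above it on either array. Whether erythroid cells contributed was not tested.

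A minority of macrophage-type and lipid genes were called. Of 17 tissue macrophage receptors 4 rose and none fell, with a median difference of 0.31, where 4.41% of genes above the median on either array were higher. Trem2, a lipid-sensing receptor, read 218, 222 and 552, and Mertk, which takes up dying cells, read 37.5, 107 and 309. Cd36, a scavenger receptor for lipids, read 91.2, 2116 and 6912, a difference of 1.69. Apoe, the lipoprotein component, fell, at 4754, 362 and 139, a difference of -1.21. In the list of lipid handling 3 of 23 members rose and 1 fell. Adgre1, the F4/80 antigen, read 7100, 7386 and 7471 and did not pass the rule.

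Monocyte genes divided. Of 21 measured members 2 rose and 5 fell, with a median difference of -0.12. Among all genes above the median on either array, 4.41% were higher and 1.43% lower. Chil3, a chitinase-like protein of monocytes and alternatively activated macrophages, read 18336, 8248 and 2691, a difference of -1.60. Fn1, fibronectin, read 17130, 9937 and 4314, a difference of -1.20, and Hp, haptoglobin, read 13911, 2952 and 857.5, a difference of -1.75. These 3 were highest at 0 h and lower on each later array. F13a1, a coagulation factor chain, rose after a lower 24 h value, at 18068, 1169 and 3893, and Cd14, the lipopolysaccharide co-receptor, read 6365, 2797 and 5668. Csf1r and Lyz2 were not called, at 17279 and 17246 at 48 h.

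Of the 15 genes with the largest falls, 10 were higher at 24 h than at 0 h and 5 were lower. Retnla, a secreted protein of alternatively activated macrophages, read 5.83, 1710 and 144, a difference of -3.31, the largest fall. Arg1, the arginase of those cells, read 11.9, 213 and 85.9, a difference of -1.05. Cmklr1, the receptor for chemerin, read 66.3, 1665 and 714, a difference of -1.19. In the list of alternative activation 2 of 18 members rose and 3 fell. The others, such as Mrc1, the mannose receptor, at 3047 and 4947, were not called. Among all genes above the median on either array, 4.41% were higher and 1.43% lower. Trem3, a receptor of the TREM family, read 3106, 1814 and 469, and Plcb1, a phospholipase C, read 3765, 240 and 39.5. Ear3 fell from 997 to 82.9, on a probe set that can read close copies in the same ribonuclease family, so its identity is uncertain. Elane, a neutrophil elastase of granule precursors, fell from 290 to 56.9 after 1791 at 0 h.

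Elane, Lcn2 and Cd177, genes of neutrophils and their precursors, were the 3 of 12 neutrophil genes that fell, while 0 rose. Among all genes above the median on either array, 1.43% were lower and 4.41% higher. The list as a whole had a median difference of -0.0048 with 6 of 12 members above 0: Ngp went from 603 to 967, Camp from 177 to 243 and Mpo from 170 to 277, none of them called. Cd177 lost its call when 64 was added and when the brighter value had to exceed 4 times the array median. The summed intensity of that list was 39525 at 0 h, 8711 at 24 h and 6343 at 48 h. Whether a loss of such cells, less RNA per cell or both lay behind these values was not tested, and in bulk RNA fewer cells of a type and less RNA per cell cannot be told apart. B cell, T and NK cell, and mast cell lists had 0 called genes each. The defining genes Ms4a1 and Cd3e were at 39.9 and 2.26 at 48 h, but 2 of 10 B cell, 3 of 9 T and NK cell and 3 of 9 mast cell list members were above the array median at 48 h, among them Pax5 at 148, Klrd1 at 479, Ncr1 at 191 and Gata2 at 571. Over all genes, 11341 of 18193 were above it at 24 h or 48 h. Whether such cells contributed was not tested. Siglech, which defines plasmacytoid dendritic cells, was at 48.1 at 48 h, and Cox6a2, another marker of them, was at 39.0. Of that list 3 of 6 measured members were above the array median at 24 h and at 48 h. Pacsin1 rose from 148 to 1211, and Klk1, also a marker, read 1030, 1155 and 1100 and was not called. Whether plasmacytoid dendritic cells contributed was not tested. Pf4 and Ppbp, platelet chemokines, read 10082 and 3440 at 24 h and 8087 and 2806 at 48 h, after 50.3 and 84.2 at 0 h.

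Several other groups had few calls, where 4.41% of genes above the median on either array were higher and 1.43% lower. At those shares, few or no calls fall in a list of this size. None of 28 DNA replication genes or 29 mitosis genes was called, with medians of 0.06 and 0.34, and the mitosis genes had been lower at 24 h than at 0 h by a median of 1.89. Ccnd2 and Ccnd1, the D cyclins that carry growth signals to the cell cycle, rose, by 1.24 and 1.19, with all 6 and all 2 of their other bright probe sets in the same direction. None of 22 ribosome biogenesis genes was called, though their median difference, -0.38, was the lowest of the 36 pathway lists. None of 26 oxidative phosphorylation genes and none of 11 heat shock genes was called.

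In the hypoxia list 4 of 18 measured genes rose and none fell, with a median of 0.50, where 4.41% of genes above the median on either array were higher. Of these 4, Ankrd37 was not called on quantile-normalized arrays, and Ndrg1 was not called on centred arrays and changed sign with the probe set brightest over the monocyte arrays. Slc2a3, a glucose transporter, read 382, 348 and 1382, a difference of 1.89, and Egln3, a prolyl hydroxylase induced in low oxygen, read 109, 228 and 820, a difference of 1.71. Vegfa stayed dim, at 67.6 at 48 h. Aldoc, an aldolase, was the only one of 16 glycolysis genes called, from 1484 to 5064. Il18, a cytokine of the interleukin-1 family, read 1451, 130 and 879, and Il2ra, the interleukin-2 receptor alpha chain, read 94.6 at 24 h and 719 at 48 h.

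**Figure D3:**
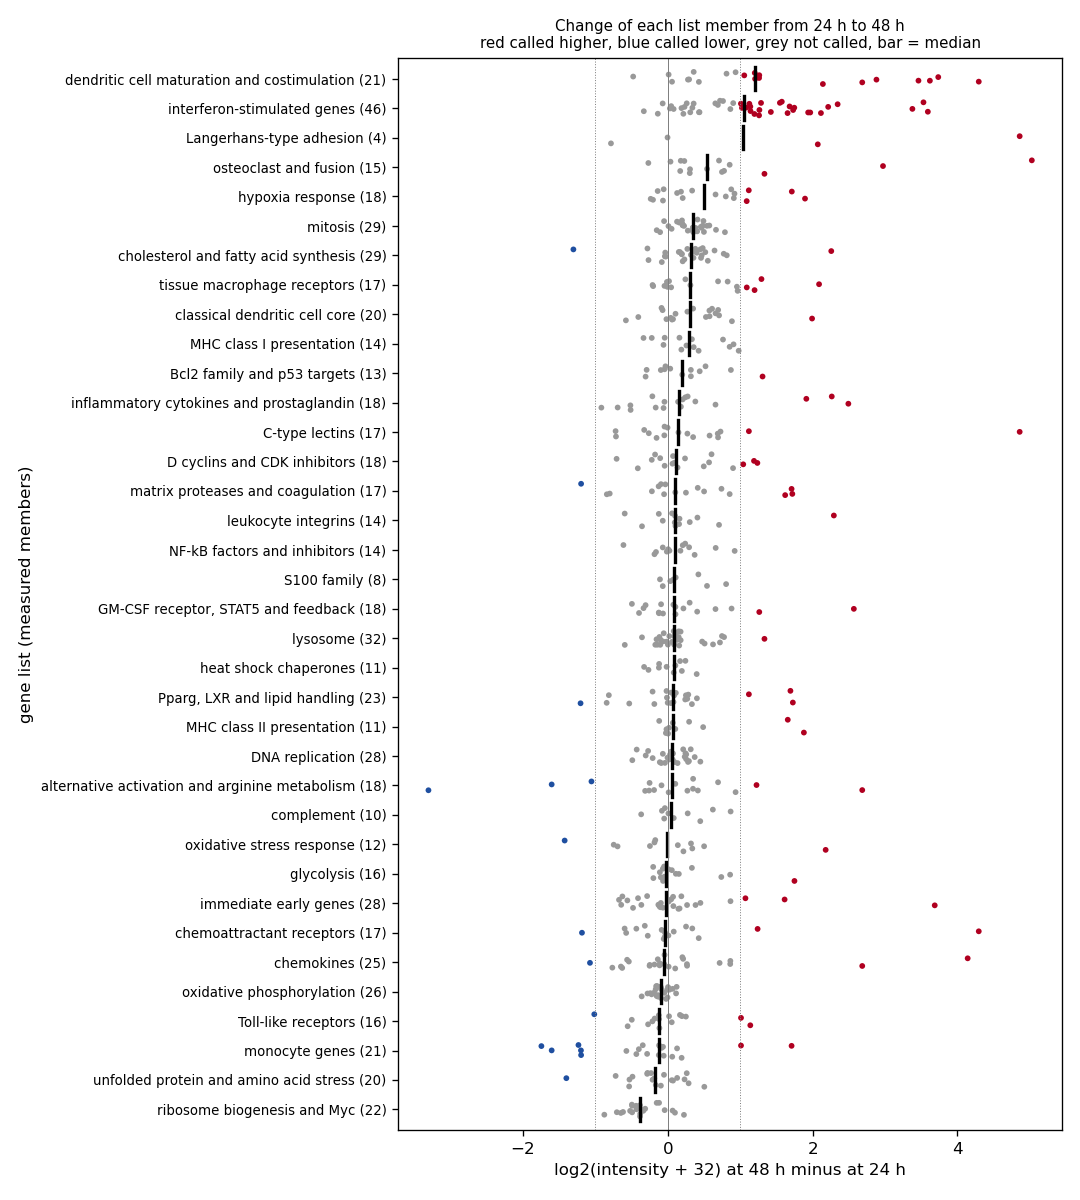
Each point is a measured member of 1 of 36 pathway lists, at its log2(intensity + 32) at 48 h minus 24 h, 1 array each; bars are list medians and the dotted lines mark 2-fold. The maturation list (median 1.20), the interferon-stimulated list (1.05) and the small adhesion list (1.03) have the highest medians, and ribosome biogenesis (-0.38) has the lowest.

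The 7-day marrow cultures share no array with the monocytes. CD11c+ GM-CSF cells against M-CSF adherent cells had 968 genes higher (5.32%) and 781 lower (4.29%) by the same rule. Of the 500 genes that rose in monocytes, 175 (35%) were higher and 45 (9%) were lower in the CD11c+ cells. Of the 162 that fell, 20 (12.3%) were higher and 16 (9.88%) lower. Taken from the other side, 18.1% of the 968 and 5.76% of the 781 were among the genes that rose. Genes must be bright to be called, and of the 11341 above the median on either monocyte array 7.61% were higher and 5.85% lower in CD11c+ cells. The cultures are scaled to a lower median (24.09 and 25.66), so the same added 32 weighs more there.

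Among the maturation genes 15 of 21 were higher in the CD11c+ cells and none lower, with a median difference of 2.64. Ccr7 read 7190 in CD11c+ cells and 86.5 in M-CSF cells, and Cd83 read 4997 and 735. Nr4a3 read 3005 and 14.9, and Mreg read 2579 and 49.6. The interferon-stimulated genes differed in direction: 4 of 46 were higher and 20 lower in CD11c+ cells, with a median difference of -0.88, and Rtp4 read 524 against 3457. Cd207 read 42.7 in the CD11c+ cells and 2.71 in the M-CSF cells. Car2 was higher in the CD11c+ cells, at 1587 against 144.

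**Figure D4:**
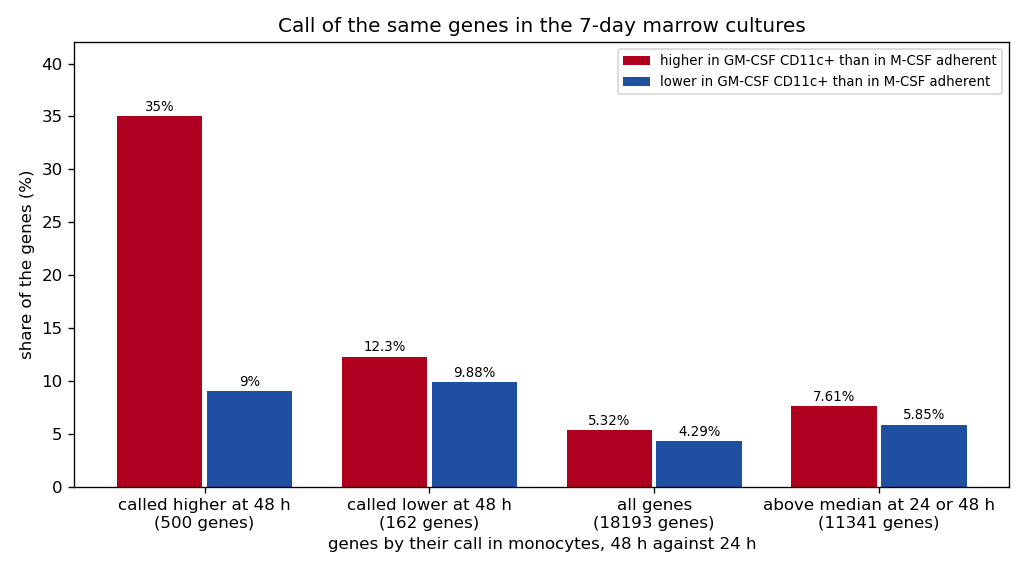
Bars give the share (percent) of each gene set called higher (red) or lower (blue) in CD11c+ cells of 7-day GM-CSF marrow cultures than in adherent cells of M-CSF cultures, 1 array each. Among the 500 genes that rose in monocytes from 24 h to 48 h, 35% were higher and 9% lower, against 5.32% and 4.29% of all genes and 7.61% and 5.85% of the genes above the median at 24 h or 48 h.

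Where a gene had other bright probe sets, most agreed in direction. For the genes that rose, 184 had 262 other bright probe sets, of which 233 moved the same way, 135 of them by 2-fold or more, and 1 moved 2-fold the opposite way. For the genes that fell, 51 had 66 others, of which 53 moved the same way, 21 of them by 2-fold or more, and 1 moved 2-fold the opposite way. Abca1, the cholesterol exporter, Inhba, an activin subunit, and Mvd, of the mevalonate pathway, were each called on a probe set whose only other bright set moved the opposite way. Taken as the median of all probe sets, Fscn1, Nr4a3, Nr4a2, Dpp4, Cmklr1, Trem2, Inhba and Mvd were no longer called, and Kif5a and Plcb1 of the largest falls changed sign. Cd14 was not called on centred or quantile-normalized arrays, Arg1 was lost when 64 was added and under a stricter brightness rule, and Elane and Mertk were lost when the brighter value had to exceed 4 times the array median. Just inside the threshold Cep128 went from 363 to 761, and just outside it Kbtbd11 went from 359 to 749.5.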

How the data were processed

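Values are intensities on a linear scale, as the authors deposited them in the series matrix; the background correction, summary and scaling behind them, and the genome build, are not given in the sources used here. RNA was labelled with the 3' IVT Express kit, per the labels. Probe sets were named through GEO's platform annotation, with symbols updated by gene ID against RefSeq (18031 of 18193 genes); of 45037 probe sets, 932 with several genes and 9160 with none were set aside. Each gene was represented by its brightest probe set, judged on the mean of the 15 arrays. No array was rescaled for the comparison. The call rule was run on simulated arrays in which only bright genes were changed, by 4-fold, which says nothing of dim genes or smaller changes. The comparison, the 45 gene lists (712 measured genes) and the named genes were chosen with earlier results of these data known. The genes named were the 15 largest rises and 15 largest falls among called genes and up to 5 called members per list. Cd207, Cd83, Rtp4, Car2 and the defining markers of each cell type were also named. Clones, predicted models, Xist, Y-linked genes and receptor segments were passed over. Other genes are named as examples chosen after their values were seen. Alternatives changed the added value, scaling, probe set, filter and fold. Promoters came from RefSeq (GRCm38.p6). Python 3.11.15, pandas 2.3.3, NumPy 2.4.6 and matplotlib 3.10.9 were used. The number of arrays, 1 a side, limits the precision.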

Additional observations from a re-analysis of the deposited data

How the results depend on the processing

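No paired analysis was possible because the comparison has 1 array on each side. Adding 16 or 64, centring or quantile-normalizing the 3 monocyte arrays, another choice of probe set and no filter left 404 to 561 genes higher, 111 to 204 lower, 11 or 12 maturation genes higher and 20 to 25 interferon-stimulated genes higher, each within 1.5 times the reported count. Requiring the brighter value to exceed 4 times the array median left 371 genes higher and 103 lower. At 4-fold, 134 genes were higher and 9 lower, with 7 maturation and 6 interferon-stimulated genes higher; at 1.5-fold, 1286 were higher and 632 lower. The probe set taken for a gene changed the sign of 6 of 97 called named genes. With the median of all probe sets, Abca1 was at -0.31, Vcam1 at -0.82, Plcb1 at 0.16 and Kif5a at 0.35. With the brightest probe set over the monocyte arrays, Sox4 was at -0.059 and Ndrg1 at -0.29. Of the 97, 60 kept their call under all 8 alternatives run on them and 31 lost it at least once without changing sign. Counting each of 34945 probe sets alone, chosen after seeing the data, gave 770 higher and 276 lower. The cause of these differences was not tested. Values near the array median have no stated noise level, so folds of dim genes are the least certain.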

Other observations

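Single genes of several other lists were called between 24 h and 48 h, and most members of these lists were not; over all genes 2.75% were higher and 0.89% lower, and over those above the median on either array 4.41% and 1.43%. In the list of matrix proteases and coagulation, 3 of 17 members rose and 1 fell: Mmp13, a collagenase, read 4.74 at 0 h, 105 at 24 h and 418 at 48 h, and Timp2, an inhibitor of such proteases, read 1263, 613 and 1950. In the list of the oxidative stress response, 1 of 12 rose and 1 fell: Slc40a1, the iron exporter ferroportin, read 70.5, 40.1 and 295, and Gsr, glutathione reductase, read 2930, 2016 and 731. Among Toll-like receptors and their partners, 2 of 16 rose and 1 fell: Ly96, the MD-2 partner of TLR4, read 2060, 799 and 1799, and Tlr1 read 1480, 1327 and 640.1. Pmaip1, the BH3-only protein Noxa, read 1957, 696 and 1771, and was the only one of 13 genes of the Bcl2 family and p53 targets called. Pdia4, a disulphide isomerase of the endoplasmic reticulum, fell from 1657 to 607 and was the only one of 20 stress genes called. Il33, an alarmin, read 9.17, 3.34 and 138. Some of these calls were lost under an alternative: Pdia4 as the median of its probe sets, Tlr1 when 64 was added, and Slc40a1 and Il33 when the brighter value had to exceed 4 times the array median.

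Some called genes belong to lists of other cells. Vwf, von Willebrand factor, read 29.8, 37.3 and 313. In the same list of megakaryocytes and platelets, Gp9 and Gp1bb, platelet glycoproteins, stayed at or below 59.4. Itga2b, an integrin chain, was little above the array median at 83.8 at 24 h and 93.8 at 48 h, and Pf4 and Ppbp were bright, as given above. Of 6 measured members 4 were above the median at 48 h, where 11341 of all 18193 genes were above it at 24 h or 48 h. Cd34, a progenitor antigen, read 186, 426 and 914, while Kit read 7.48, 141 and 139.6. Vwf was not called when the brighter value had to exceed 4 times the array median, and Cd34 was not called when 64 was added or on centred or quantile-normalized arrays. Whether rare cells contributed to these readings was not tested. Of the 10092 probe sets with several genes or none, 157 were higher and 64 lower at 48 h by the same rule, and they are not named here.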
